A study of Mus musculus with 24 samples.

Results

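The genes described here encode the subunits of heterotrimeric G proteins and the regulators of G protein signalling (Rgs), measured in mouse retina and pineal gland with and without the transcription factor gene Neurod1. Members were all genes of the array annotation with a single symbol that begins with Gna, Gnb, Gng or Rgs and continues as the names of these families do. Gnb1, Gnb3, Gng4, Gng13 and Rgs18 fit the pattern and are not described here. This gave 45 genes of 18193, covered by 108 probe sets of the Affymetrix Mouse 430 2.0 array. Each gene was read from its probe set with the highest mean signal. The study had 24 arrays, 1 for each of 3 pools in 8 groups, with 6 glands or retinas in a pool. The 4 cKO groups were retina at ZT20 and at ZT6 and pineal gland at ZT20 and at ZT6, from mice labelled NeuroD1flox/flox::Crx-Cre+/-. The 4 control groups were the same tissues and times from mice labelled NeuroD1flox/flox::Crx-Cre-/-. All mice were C57BL/6J, of both sexes and 2 months old, so that the controls carried the floxed alleles too. ZT20 lay in the dark phase, with tissue taken under dim red light, and ZT6 lay in the light phase of the lighting cycle. The Cre transgene was driven by the promoter of Crx, a homeobox gene of photoreceptors and pinealocytes, so the deletion is directed at cells in which that promoter is active. Which cells of either tissue lost the gene was not tested.

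A heterotrimeric G protein has an alpha, a beta and a gamma subunit and relays the signal of a receptor in the membrane. An activated receptor makes the alpha subunit exchange GDP for GTP, after which alpha and beta-gamma each act on effectors until the alpha subunit hydrolyses its GTP. Rgs proteins speed up that hydrolysis and so shorten the signal. Alpha subunits are grouped by effector: Gs and its relative Golf activate adenylyl cyclase, Gi/o subunits oppose it, Gq/11 subunits activate phospholipase C beta, and G12/13 subunits act on the cytoskeleton. In photoreceptors transducin, a Gi/o relative encoded by Gnat1 in rods and Gnat2 in cones, couples the visual pigments to phosphodiesterase, and the complex of Rgs9, Gnb5 and the anchor Rgs9bp switches it off. In ON bipolar cells Go, encoded by Gnao1, relays the glutamate signal and is switched off by Rgs7 and Rgs11 with Gnb5. In the rodent pineal gland noradrenaline released at night acts through Gs and Gq/11 coupled receptors to drive melatonin synthesis.

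Of the 45 members, 38 were tested in retina, 34 in pineal gland and 39 where both tissues were fitted together. A gene was tested in a tissue when its signal exceeded the array median on 3 or more of that tissue's 12 arrays, and the other members were dimmer than that. The members fell into 13 alpha subunits, 3 beta subunits, 7 gamma subunits, 18 Rgs genes and both Rgs anchors Rgs7bp and Rgs9bp. The other two are Gnb1l, which is named alike and encodes no G protein subunit, and Gnasas1, an antisense transcript of the Gnas locus. Differences below are log2 differences of signal + 16 with their standard errors, from limma with 3 pools per group, and a gene passed when its adjusted p over all genes tested was under 0.05. Probe sets differ in how strongly they bind, so signals are compared between samples and never between genes.

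Neurod1 itself was lower in cKO pools of both tissues, and passed at each time in limma as deposited (adjusted p = 0.037 in the retina at ZT20 and smaller in the other 3 comparisons). The pineal call at ZT20 was lost after quantile normalisation (-3.01, adjusted p = 0.31) and after median centring (-2.82, adjusted p = 0.074). The other calls held on both scales. In the retina Neurod1 read 369, 3595 and 3582 in the cKO pools at ZT20 and 639, 774 and 293 at ZT6, against 7237 ± 480 and 6407 ± 646 (SD, n = 3) in controls. In the pineal gland it read 22.5, 1897 and 960.0 in cKO pools at ZT20 and 83.5, 29.1 and 30.9 at ZT6, against 3622 ± 618 and 4974 ± 312 in controls. Which exons the floxed alleles span was not analysed here. Pools 2 and 3 labelled cKO at ZT20 therefore kept more Neurod1 signal than pool 1 in both tissues, and calls that ended without them are named. Leaving them out leaves 1 cKO pool at ZT20, which is then assumed to vary like the pools of the other groups. Array medians differed between genotypes in opposite directions. In the retina they averaged 148 ± 20.5 at ZT20 and 153 ± 26.4 at ZT6 in cKO, against 125 ± 15.7 and 119 ± 8.72 in controls. In the pineal gland they averaged 115 ± 12.6 and 122 ± 8.32 in cKO, against 145 ± 12.1 and 145 ± 14.5 in controls. Values were analysed as deposited, and the effect of quantile normalisation and of median centring on the calls of members is given beside them. Calls of cell type markers and of pathway partners are given as deposited only. Rod markers summed to 33808 to 44122 units in retinal arrays and 2539 to 9411 in pineal arrays, and pinealocyte markers, some of which photoreceptors share, to 25469 to 32557 and 37182 to 46106. In both pineal groups at ZT6, pool 3 stood apart in Gnat1, with 2234 units in cKO and 3830 in control, against at most 1267 in the other pineal pools.

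The first comparison asked how these genes differed in the retina when Neurod1 was deleted. Gna14, a Gq/11 class alpha subunit, was about 4 times as high in cKO retinas at both times, and no other member moved as far at either time. At ZT20 its signal was 1315, 1048 and 1032 in cKO retinas, against 214, 282 and 304.5 in controls. At ZT6 it was 746, 1165 and 977 in cKO retinas, against 207, 181 and 289 in controls. Every cKO pool lay above every control pool at both times, including pools 2 and 3 at ZT20. The log2 difference was 2.03 ± 0.22 at ZT20 (fold 4.07, adjusted p = 2e-05) and 2.02 ± 0.22 at ZT6 (fold 4.05, adjusted p = 1.4e-05). The 2 other probe sets of Gna14 gave differences of 2.04 to 2.06 at ZT20 and 1.90 to 2.11 at ZT6. Both calls remained under every alternative setting and with any pool left out. The plot of signal by pool shows this gap for Gna14 beside 5 other members.

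**Figure D1:**
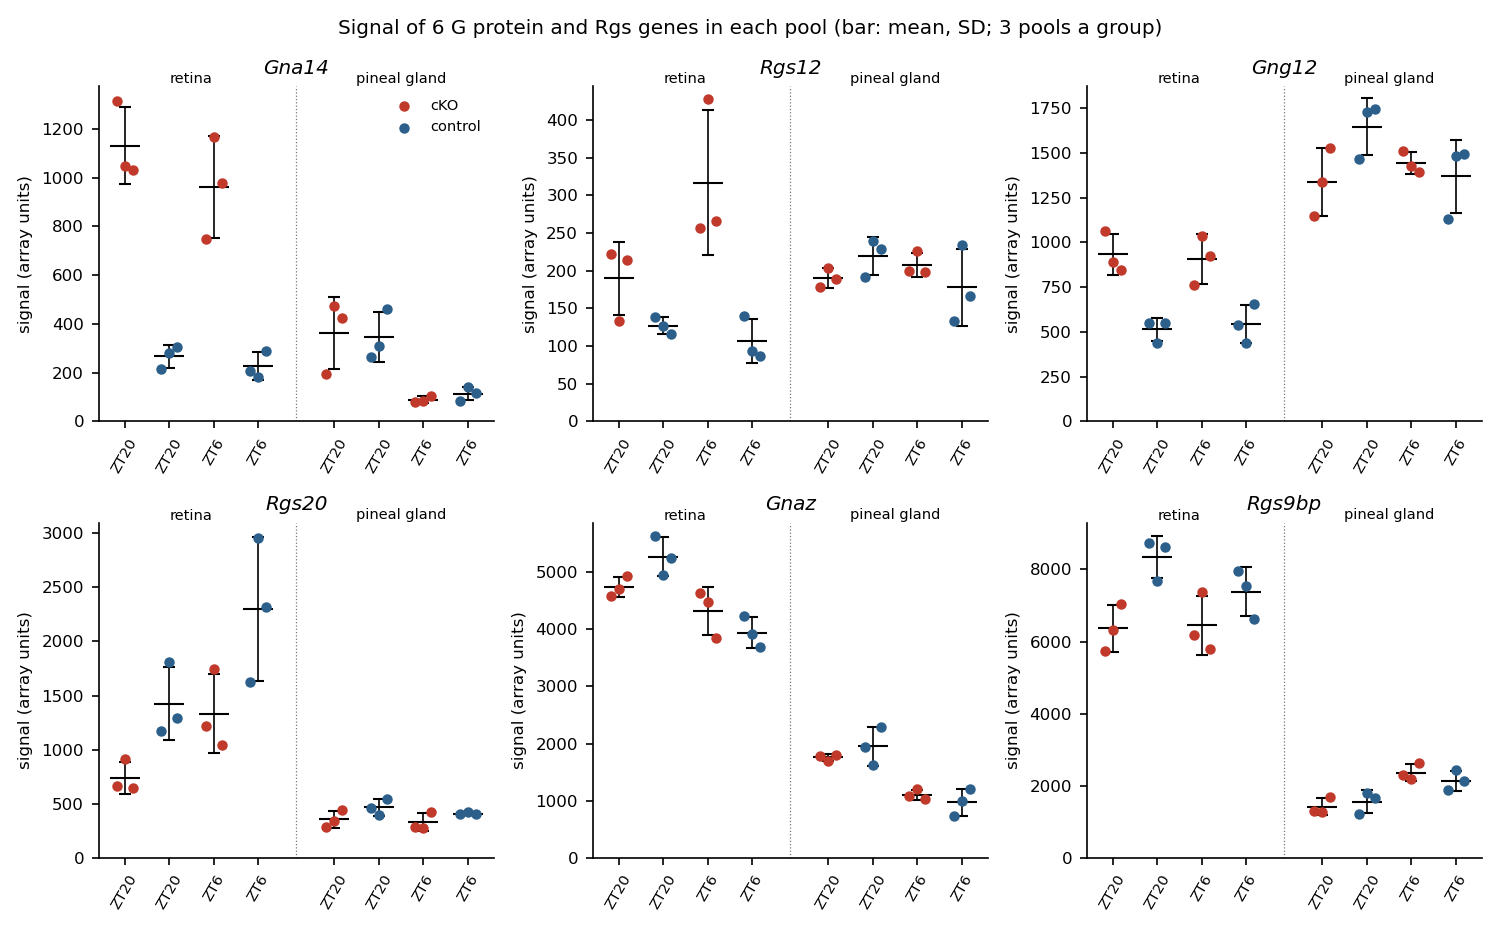
Signal of Gna14, Rgs12, Gng12, Rgs20, Gnaz and Rgs9bp in each pool, in array units on linear axes that start at 0, with retina left and pineal gland right of the dotted line. Red points are cKO pools, blue points control pools, and black bars the mean and SD of 3 pools; the 6 cKO retina pools of Gna14 lie between 746 and 1315 and the 6 control retina pools between 181 and 304.5.

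The promoter of Gna14 is shown because this gene carries the largest difference between genotypes, beside that of Rgs12, the next largest at ZT6, and that of Rgs4, the only member that passed between genotypes in the pineal gland. Each is the stretch from 250 bases before to 50 bases after an annotated start, 5′ to 3′ on the gene's strand, from RefSeq on build GRCm38.p6. That of Gna14 is chr19:16435417-16435716 (plus strand), that of the second of 2 starts of Rgs12 is chr5:34998828-34999127 (plus strand), and that of Rgs4 is chr1:169747593-169747892 (minus strand). Capitals mark matches to motifs searched on both strands: the E-box CAGATG, of the kind bound by NeuroD1 and other basic helix-loop-helix factors, and TGACG, the core of the cyclic AMP response element.
Gna14: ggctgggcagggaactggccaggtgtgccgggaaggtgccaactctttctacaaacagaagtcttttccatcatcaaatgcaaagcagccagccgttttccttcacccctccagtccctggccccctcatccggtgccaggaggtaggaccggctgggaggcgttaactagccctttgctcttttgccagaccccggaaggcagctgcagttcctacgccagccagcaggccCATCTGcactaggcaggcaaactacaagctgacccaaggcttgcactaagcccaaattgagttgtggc
Rgs12: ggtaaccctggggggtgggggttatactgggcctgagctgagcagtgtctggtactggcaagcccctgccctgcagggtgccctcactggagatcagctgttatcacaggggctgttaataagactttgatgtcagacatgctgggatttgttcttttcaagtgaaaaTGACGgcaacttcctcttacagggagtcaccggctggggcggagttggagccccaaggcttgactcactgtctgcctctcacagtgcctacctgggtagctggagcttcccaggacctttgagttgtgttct
Rgs4: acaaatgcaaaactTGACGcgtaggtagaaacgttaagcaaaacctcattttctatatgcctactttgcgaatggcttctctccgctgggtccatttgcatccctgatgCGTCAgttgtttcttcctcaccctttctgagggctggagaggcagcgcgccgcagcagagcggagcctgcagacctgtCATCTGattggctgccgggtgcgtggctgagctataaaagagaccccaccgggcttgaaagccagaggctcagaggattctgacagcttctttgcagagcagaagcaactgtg
Gna14 has 1 E-box, starting 18 bases before the start and read on the other strand as CATCTG. Rgs12 has 1 TGACG at position -82, and its other start has neither motif. Rgs4 has 2 copies of TGACG, at -236 and -141, and 1 E-box at -63. Of 32851 RefSeq mouse promoters of the same length, 17.2% hold the E-box and 20.8% TGACG. The 34 members with a promoter in the table have 45 promoters, of which 9 hold the E-box and 12 hold TGACG. The full element TGACGTCA, each copy of which also holds TGACG on both strands, is in 1.79% of all promoters and in 0 of these 45. The homeobox motif TAATCC, of the kind bound by Crx, is in 7.06% of all promoters and in 2 of these, 1 of Gnb5 and 1 of Rgs19. Promoters of Gng12 and Rgs10 hold none of the 4 motifs. A match is a description of these letters and not a binding site.

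At ZT6, 16 of 38 tested members passed in the retina, 15 higher and 1 lower in cKO. Of all genes tested 23.9% passed, 22.8% higher and 1.12% lower, and the median log2 difference was 0.36 for the members and 0.29 for all genes. Of the alpha subunits 8 of 12 passed as higher and 0 as lower. All 3 tested Gq/11 subunits were higher, Gna14, Gna11 (0.70 ± 0.20) and Gnaq (0.47 ± 0.14), as were both G12/13 subunits, Gna12 (0.63 ± 0.20) and Gna13 (0.33 ± 0.09). Of 5 Gi/o subunits 3 were higher: Gnai2 (0.73 ± 0.19), Gnai3 (0.57 ± 0.14) and Gnao1 (0.45 ± 0.11). The Gs subunit Gnas (0.28 ± 0.11) and its olfactory relative Gnal (0.42 ± 0.23) did not pass. Among beta and gamma subunits Gnb2 (1.00 ± 0.25), Gng12 (0.73 ± 0.19) and Gng7 (0.66 ± 0.23) were higher, and 6 of 9 did not pass. Other probe sets gave 0.03 to 0.41 for Gnao1 and 0.02 to 0.70 for Gnaq. With all probe sets averaged the calls of Gna13, Gnao1, Gnaq and Gng7 ended. Of the subunit rises named here, only those of Gna14 and Gnao1 held with every single pool left out.

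Rgs12, a multidomain Rgs protein of the R12 family that acts on Gi/o, had the next largest rise at ZT6. It read 257, 428 and 266 in cKO retinas, against 140.4, 93.2 and 86.3 in controls. The groups did not overlap (1.43 ± 0.26, fold 2.69, adjusted p = 0.0014), and its 2 other probe sets gave 0.57 and 0.71. Rgs12 lay above the array median on 9 of the 12 retinal arrays and was thus a dim signal. At ZT20 it read 222, 134 and 214 in cKO retinas, against 139, 126 and 116 in controls, with overlapping pools and no call (0.50 ± 0.26, adjusted p = 0.33). Gnb2, a widely expressed beta subunit, read 625, 923 and 840 in cKO retinas at ZT6, against 521, 355 and 308 in controls. These groups did not overlap either (adjusted p = 0.011).

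Rgs20, an Rgs protein of the RZ family that acts on Gz and other Gi/o subunits, was lower in cKO at both times. At ZT20 it read 662, 910 and 646 in cKO retinas, against 1174, 1809 and 1293 in controls, with every cKO pool below every control pool. At ZT6 it read 1215, 1746 and 1041 in cKO retinas, against 1624, 2956 and 2315 in controls, and the highest cKO pool lay above the lowest control pool. The differences were -0.93 ± 0.24 (1.90-fold lower, adjusted p = 0.024) and -0.77 ± 0.24 (1.70-fold lower, adjusted p = 0.029), and 2 other probe sets gave -0.54 to -0.19 and -0.40 to -0.30. The call at ZT20 was lost without pools 2 and 3 of cKO, where the difference of the 1 pool left was no smaller (-1.06, adjusted p = 0.058), and both calls were lost with some single pools left out or with all probe sets averaged (adjusted p up to 0.15 and 0.16). Other called Rgs genes at ZT6 were higher in cKO: Rgs5 (0.59 ± 0.13), which marks pericytes, Rgs17 (0.54 ± 0.17), of the RZ family, and Rgs8 (0.53 ± 0.15), an R4 protein of neurons. None of the 3 tested R7 genes, Rgs7, Rgs9 and Rgs11, passed at either time (limma, unadjusted counts over all members being 21 at ZT6 and 15 at ZT20).

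At ZT20, 5 of 38 members passed in the retina, 3 higher and 2 lower, against 6.5% of all genes, 5.48% higher and 1.02% lower. Besides Gna14 and Rgs20 these were Rgs10, Gng12 and Rgs9bp. Rgs10, a short R12 protein abundant in microglia, read 1091, 635 and 1052 in cKO retinas, against 554, 368 and 545 in controls. Its groups did not overlap (0.88 ± 0.26, adjusted p = 0.049), and at ZT6 it was at 0.71 ± 0.26 (adjusted p = 0.052). The call at ZT20 ended under 5 of 10 alternative settings and with 5 of 6 single pools left out (adjusted p up to 0.28), while the difference stayed between 0.67 and 1.16. Without pools 2 and 3 of cKO it was 1.16 (adjusted p = 0.052), and with the replicate block adjusted p was 0.065. Gng12, a gamma subunit, read 1062, 891 and 845 in cKO retinas, against 551, 440 and 550 in controls, again without overlap (0.84 ± 0.19, adjusted p = 0.013). The call of Gng12 ended with 2 of 6 single pools left out (adjusted p up to 0.11). Rgs9bp, the membrane anchor of Rgs9 in photoreceptors, read 5744, 6315 and 7040 in cKO retinas, against 8730, 7684 and 8615 in controls. Its groups did not overlap (-0.39 ± 0.10, 1.31-fold lower, adjusted p = 0.023). The call of Rgs9bp ended without the variance trend and with 3 of 6 single pools left out (adjusted p up to 0.16). Gna14, Gng12 and Rgs20 passed at both times.

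**Figure D2:**
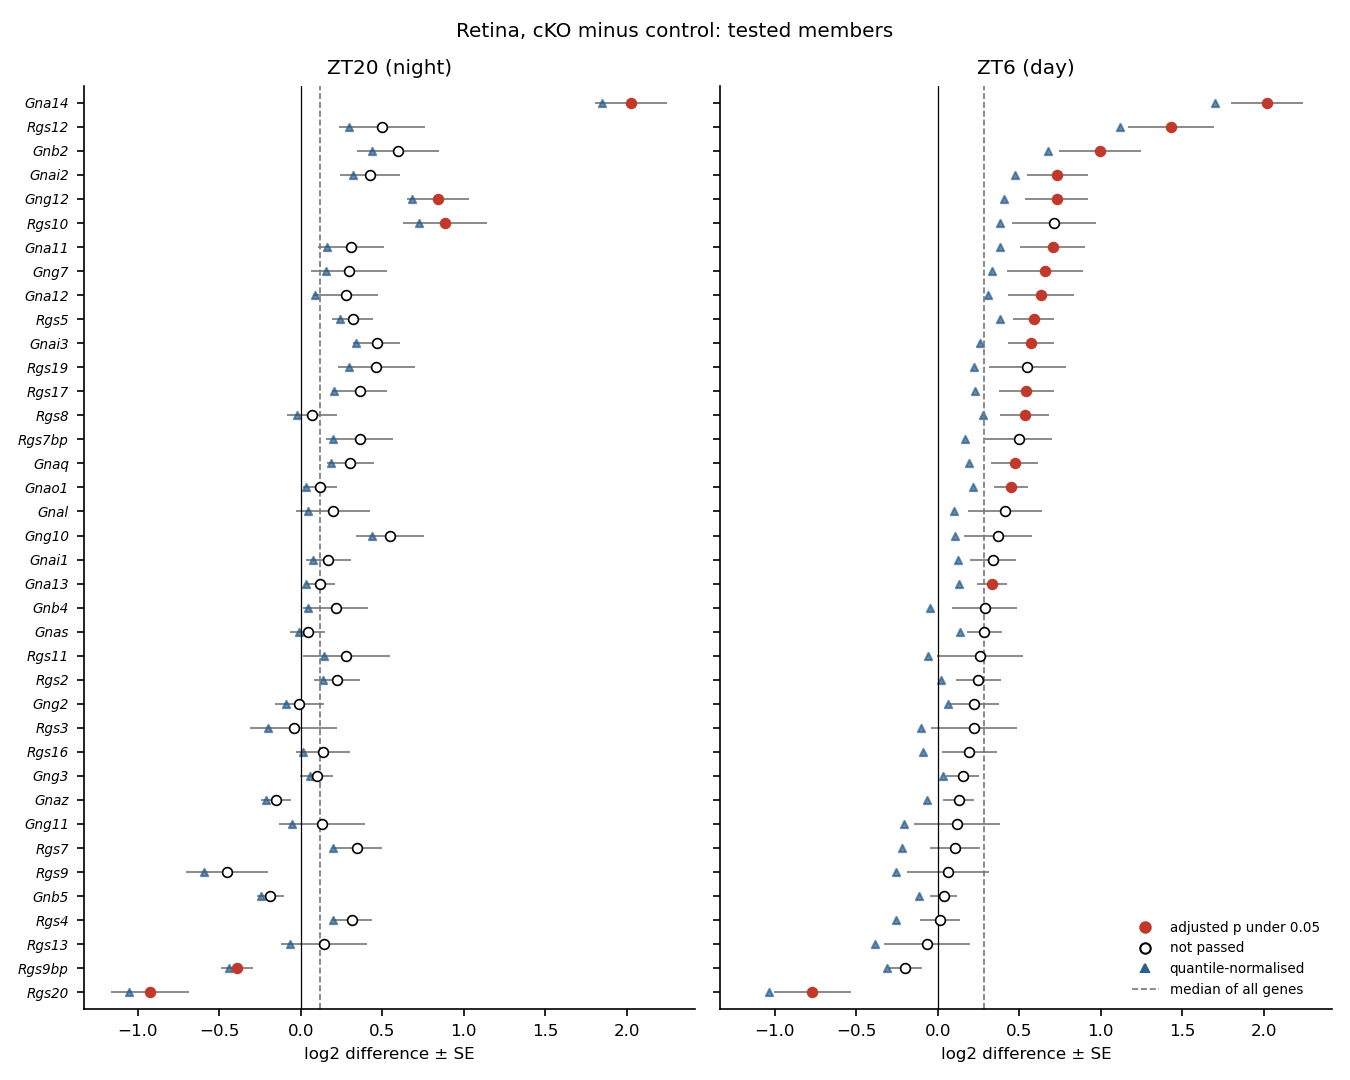
Log2 difference between cKO and control retinas with its standard error for the 38 tested members, at ZT20 (left) and ZT6 (right), ordered by the difference at ZT6. Red points passed an adjusted p under 0.05, blue triangles are the quantile-normalised differences, and the dashed line is the median of all genes (0.12 at ZT20, 0.29 at ZT6); Gna14 lies furthest right in both panels and Rgs20 furthest left.

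The scaling of the arrays bears on the counts at ZT6. After quantile normalisation 10 members passed, 8 higher and 2 lower, against 16.7% of all genes, 9.55% higher and 7.12% lower. After median centring 7 passed, 5 higher and 2 lower, against 13.4%, 6.66% higher and 6.72% lower. Of the 15 rises, those of Gna12, Gna13, Gnai3, Gnaq, Gng12, Gng7 and Rgs17 were lost after quantile normalisation (adjusted p 0.084 to 0.27) and after median centring, which also ended those of Gnao1, Rgs5 and Rgs8. On both scales the fall of Rgs9bp passed (-0.31, adjusted p = 0.02 after quantile normalisation). Leaving out 1 pool gave 5 to 20 called members at ZT6, with 6 without pool 2 of cKO, 5 without pool 2 of the controls and 10 without their pool 3. All genes passing then ran from 1109 to 3546 of 11748, against 2813 with every pool. At ZT20 leaving out 1 pool gave 8 members without pool 2 of cKO and 1 to 3 without any other pool. All genes passing there ran from 282 to 807, against 764 with every pool. After quantile normalisation 6 members passed at ZT20, against 10.4% of all genes, namely the 5 named and Gnb5 as lower (-0.25, adjusted p = 0.023).

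Markers of several other cell types differed with genotype in the same arrays. Of all genes 5.48% were higher and 1.02% lower in cKO at ZT20, and 22.8% higher and 1.12% lower at ZT6. All 5 tested of 8 microglia and macrophage markers were higher in cKO at both times, and the summed signal of the 8 was 6026 to 9664 at ZT20 and 5741 to 9910 at ZT6 in cKO, against 1596 to 2535 and 1586 to 2300 in controls. Of 6 Mueller glia and astrocyte markers 3 were higher at ZT20 and 5 at ZT6, with sums of 39355 to 45383 and 39272 to 44949 in cKO, against 31745 to 36556 and 28022 to 32969 in controls. Endothelial and mural cell markers, with 1 and 3 of 7 tested higher, summed to 5405 to 5848 and 4210 to 6386 in cKO, against 2936 to 4235 and 2405 to 4639 in controls. Of 7 cone markers, 4 were lower at ZT20, and 2 were lower and 2 higher at ZT6. Of 5 rod markers 2 were lower at ZT20 and 1 was higher at ZT6, and of 8 amacrine and ganglion cell markers 3 were higher at ZT6. Also higher at ZT6 were 1 of 7 tested bipolar, 2 of 5 pinealocyte and 1 of 5 choroid plexus markers. The same held for 1 of 4 fibroblast and meninges, 1 of 1 mast cell and 1 of 5 habenula and brain neuron markers. No listed marker was at 0 on any array. The part of these cells in the differences of the G protein and Rgs genes was not tested. In whole tissue, a change in the number of cells of a type and a change in RNA per cell cannot be told apart.

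The difference between genotypes was next compared between tissues, averaged over both times, in a fit of all 24 arrays. The values are signed, cKO minus control, so a fall in the pineal gland alone also counts as larger in the retina. On that scale the difference was larger in retina than in pineal gland for 12 of 39 members and smaller for 0. Of all genes 20.9% passed, 20.2% as larger and 0.696% as smaller. Gna14 differed most (2.15 ± 0.27, adjusted p = 7.9e-07), being at 2.02 in the retina and -0.13 in the pineal gland. Rgs10 followed (1.23 ± 0.24, adjusted p = 4.2e-04), at 0.80 in the retina and -0.44 in the pineal gland. Its pineal signal was 573, 623 and 755 at ZT20 and 789, 793 and 613 at ZT6 in cKO, against 633, 1043 and 909 at ZT20 and 829, 1102 and 1197 at ZT6 in controls. The cKO pools lay below all control pools at ZT6 and overlapped them at ZT20. Rgs12 (0.94 ± 0.23, adjusted p = 0.004) was at 0.96 in the retina and 0.02 in the pineal gland, and Gng12 (0.89 ± 0.17, adjusted p = 4.4e-04) at 0.79 and -0.11. The others follow with their retinal and pineal values. They were Rgs19 (0.89, at 0.51 and -0.38), Rgs17 (0.74, at 0.45 and -0.29), Gng10 (0.72, at 0.46 and -0.26) and Rgs7bp (0.72, at 0.43 and -0.29). Further ones were Rgs4 (0.63, at 0.17 and -0.47), Gnai2 (0.60, at 0.58 and -0.02), Rgs5 (0.59, at 0.45 and -0.14) and Gnai3 (0.54, at 0.52 and -0.02). In size the pineal fall of Rgs4 exceeded its retinal rise. Rgs17 lay above the array median on 0 of 12 pineal arrays and entered this test through the retina, and its call ended under 5 of 11 alternative settings (adjusted p = 0.069 without pools 2 and 3 of cKO at ZT20) and with 3 single pools left out.

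The array medians moved in opposite directions in the 2 tissues, and the median of all genes for this difference was 0.27. After quantile normalisation 7 members were larger and 3 smaller in the retina, against 15.9% of all genes, 8.68% larger and 7.22% smaller, with Rgs12, Rgs17, Rgs4, Rgs7bp and Gnai3 lost and Rgs20, Rgs9bp and Gnb5 gained. After median centring 3 were larger, Gna14, Rgs10 and Gng12, and 9 smaller, against 40.7%, 5.6% larger and 35.1% smaller. The 9 were Gna13, Gnao1, Gnas, Gnaz, Gnb5, Gng2, Rgs2, Rgs20 and Rgs9bp. Gna14, Rgs10 and Gng12 thus passed in the same direction on all 3 scales. Smaller refers to the signed value here too. Rgs20 was at -0.85 in the retina and -0.36 in the pineal gland as deposited, so its fall was the larger one in the retina. Without pool 3 of cKO pineal glands at ZT20, 20 members passed. With 1 pool left out, all genes passing ran from 2006 to 4038 of 12928, against 2704 with every pool. Of the 8 microglia and macrophage markers, 8 also had a larger signed difference in the retina, and in the pineal gland 2 of them were lower in cKO at each time. Their pineal sums were 14123 to 18580 at ZT20 and 13311 to 17506 at ZT6 in cKO, against 17202 to 22177 and 17845 to 20209 in controls. The signed difference was also larger in the retina for 5 of 5 mast cell markers, 4 of 6 Mueller glia and astrocyte markers, 4 of 7 fibroblast and meninges markers, 4 of 7 bipolar markers and 4 of 9 endothelial and mural cell markers. Mast cell markers fell in the pineal gland, with mean sums of 1188 at ZT20 and 1189 at ZT6 in cKO, against 2540 and 2273 in controls. In the retina their mean sums were 223 and 253 in cKO, against 162 and 147 in controls. The part of these cells was not tested.

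**Figure D3:**
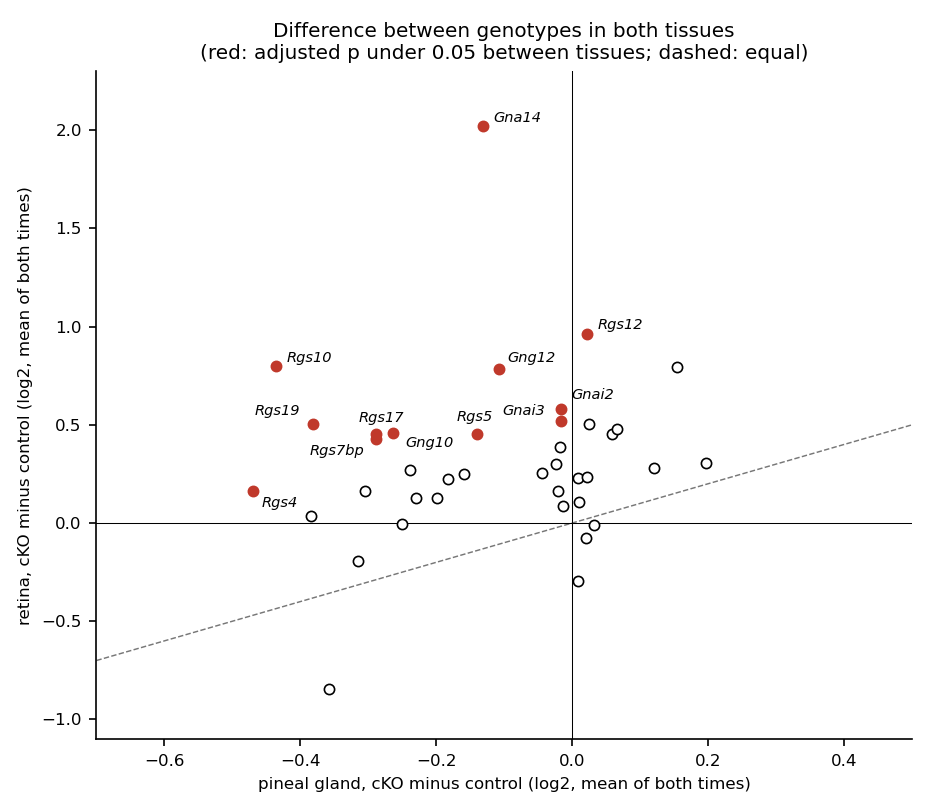
Log2 difference between cKO and control in the retina (vertical axis) against that in the pineal gland (horizontal axis, drawn on a wider scale), averaged over both times, for 39 members. Red points passed the test of the difference between tissues, and the dashed line marks equal values; all 12 red points lie above the line, and Gna14 is at 2.02 in the retina and -0.13 in the pineal gland.

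The pineal gland turns over its transcripts between day and night, and the next comparison set ZT20 against ZT6 within each genotype. In cKO glands 3 of 34 members passed, 2 higher and 1 lower at night, against 11.2% of all genes, 2.83% higher and 8.34% lower. In control glands 2 passed, both higher at night, against 8.26%, 5.13% higher and 3.13% lower. Both sets hold Gna14 and Gnaz. The median log2 difference of the members was -0.12 in cKO and 0.15 in controls, beside -0.15 and 0.02 for all genes.

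Gna14 read 193, 472 and 424 at ZT20 in cKO glands, against 79.0, 83.8 and 104.7 at ZT6. In control glands it read 265, 307 and 460 at ZT20, against 84.2, 139.5 and 115 at ZT6. Each night pool lay above each day pool in both genotypes, by 1.77 ± 0.24 in cKO (fold 3.40, adjusted p = 1.1e-08) and 1.47 ± 0.24 in controls (fold 2.77, adjusted p = 2.2e-06). Its 2 other probe sets gave 0.79 and 1.80 in cKO and 0.97 and 1.21 in controls. Gna14 exceeded the array median on 6 pineal arrays, the night ones, so it entered the test through the groups in which it was high. In cKO the 2 pools with residual Neurod1 signal had the higher night values, and with the 1 pool left the difference was 1.00 (adjusted p = 0.023). The difference of the night rise between genotypes was 0.30 ± 0.34 and did not pass (adjusted p = 0.83).

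Gnaz encodes the alpha subunit of Gz, a Gi/o relative that inhibits adenylyl cyclase and hydrolyses GTP slowly. It read 1781, 1692 and 1795 at ZT20 in cKO glands, against 1080.2, 1196 and 1027 at ZT6. In control glands it read 1944, 1618 and 2294 at ZT20, against 730.2, 989 and 1197 at ZT6. Again no night pool lay below a day pool. The rise was 0.67 ± 0.18 in cKO (fold 1.59, adjusted p = 0.0073) and 1.01 ± 0.18 in controls (fold 2.01, adjusted p = 1.5e-05), and a further probe set gave 0.78 and 0.91. Without pool 3 of both groups at ZT6 the call in cKO was lost (adjusted p = 0.053). The rise did not differ between genotypes beyond its error (-0.34 ± 0.26, adjusted p = 0.79).

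Rgs9bp went the other way. It read 1296, 1263 and 1687 at ZT20 in cKO glands, against 2299.8, 2173 and 2620.2 at ZT6. In control glands it read 1209.9, 1807 and 1658 at ZT20, against 1872, 2427 and 2123 at ZT6. Night pools lay below day pools in both genotypes, and the fall passed in cKO (-0.74 ± 0.17, adjusted p = 0.0011) but not in controls (-0.47 ± 0.17, adjusted p = 0.076), a difference between genotypes that itself did not pass (-0.28 ± 0.24, adjusted p = 0.80). Across all members 0 of 34 passed the test of that difference in limma, against 0.242% of all genes, and 4 had an unadjusted p under 0.05. After quantile normalisation 8 members passed in controls, against 25.8% of all genes: Gna11, Gna13, Gnai2 and Gng12 were then also higher and Rgs11 and Rgs9bp lower at night. After median centring 6 passed, against 15.2%, Gna11 and Gna13 being then also higher and Rgs11 and Rgs9bp lower. In cKO the same 3 members passed as before, against 18.1%. On the values as deposited, 5 passed in cKO without pool 3 of cKO at ZT20. With 1 pool left out, all genes passing in cKO ran from 723 to 3282 of 11984, against 1339 with every pool. None of the gamma or beta subunits passed in either genotype on the values as deposited.

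**Figure D4:**
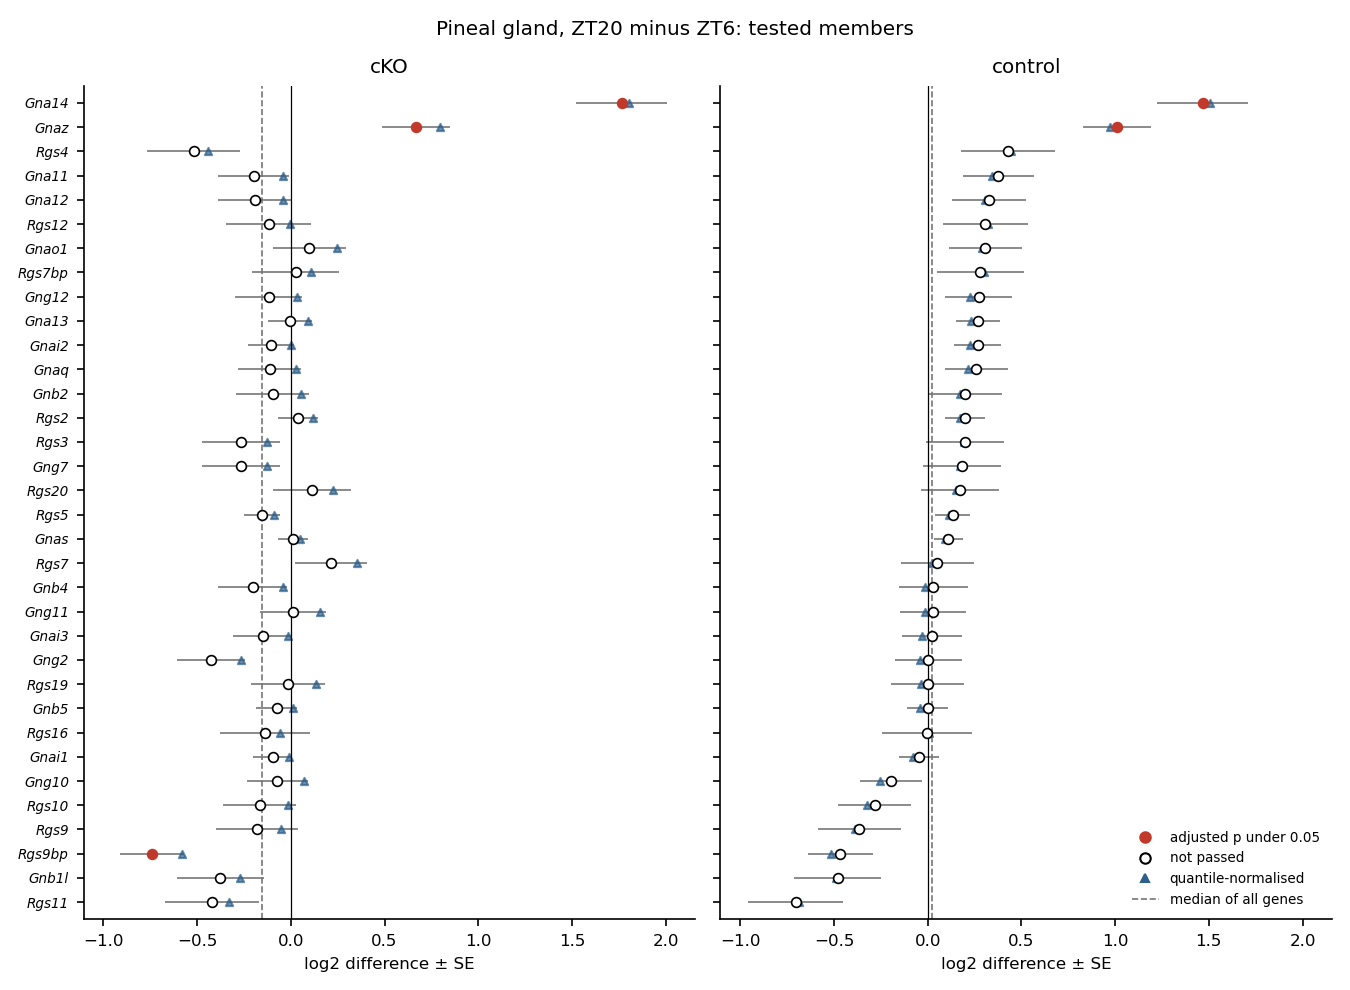
Log2 difference between ZT20 and ZT6 in the pineal gland with its standard error for the 34 tested members, in cKO (left) and control (right), ordered by the difference in controls. Red points passed an adjusted p under 0.05, blue triangles are the quantile-normalised differences, and the dashed line is the median of all genes (-0.15 in cKO, 0.02 in controls); Gna14 and Gnaz lie furthest right in both panels.

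Between genotypes within the pineal gland few differences were found. At ZT6, 0 of 34 members passed in limma, against 1.8% of all genes, and 1 had an unadjusted p under 0.05, namely Rgs10 (-0.49 ± 0.19, adjusted p = 0.28). Pools of the same number deviated together in this pair of groups, and with the pool number as a block 0 passed too. That block was shared by all 12 pineal arrays, whose other pairs of groups did not pair, so it is not a paired test of this pair alone. After quantile normalisation Rgs10 passed as lower (adjusted p = 0.049), against 1.82% of all genes, and after median centring 18 members passed as higher, against 33.6% of all genes, with a median of all genes of 0.25. At ZT20, 1 member passed as lower and 0 as higher, against 0.951% of all genes, 0.943% lower and 0.00834% higher. This was Rgs4, an R4 protein that acts on Gi/o and Gq/11 subunits. It read 82.7, 85.3 and 93.0 in cKO glands, against 159, 233 and 161 in controls, without overlap (-0.94 ± 0.25, 1.92-fold lower, adjusted p = 0.038). The signal was dim: Rgs4 exceeded the array median on 6 of 12 pineal arrays. The call was lost after quantile normalisation (-0.65, adjusted p = 0.33), after median centring (adjusted p = 0.086), without the filter (adjusted p = 0.25), without the variance trend (adjusted p = 0.17) and with only 1 cKO pool kept (adjusted p = 0.065). Over these and the single pools left out the difference lay between -1.05 and -0.64. Leaving out 1 pool gave adjusted p values up to 0.51. Mast cell markers were lower in cKO glands, 4 of 5 at each time, with sums of 872 to 1618 at ZT20 and 1028 to 1384 at ZT6 in cKO, against 1861 to 3423 and 2074 to 2447 in controls. At ZT20, 4 of 7 fibroblast and meninges markers were lower too (sums 18619 to 24745 in cKO, against 24078 to 32604 in controls), as were 4 of 9 endothelial and mural cell markers (5772 to 8083, against 9319 to 12157). At ZT6, 2 of 7 fibroblast and meninges markers and 5 of 5 tested neutrophil and marrow markers were lower (the sum of the 7 neutrophil and marrow markers was 2576 to 3058 in cKO, against 6162 to 11826 in controls) and 5 of 6 choroid plexus markers higher (31103 to 34666, against 22047 to 27360). The part of these cells in the values was not tested.

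In the retina ZT20 and ZT6 were hard to tell apart in these genes. Of 38 members 0 passed in cKO, against 0.0511% of all genes, and 0 in controls, against 0.102%, in limma on values as deposited. After quantile normalisation 0 passed too, against 0.323% in cKO and 1.24% in controls. An unadjusted p under 0.05 was reached by 3 members in cKO and 7 in controls. Rgs20 had the largest difference in both, -0.82 ± 0.24 in cKO (adjusted p = 0.53) and -0.67 ± 0.24 in controls (adjusted p = 0.31). Gnaz was at 0.14 ± 0.09 in cKO (adjusted p = 1.00) and at 0.42 ± 0.09 in controls (adjusted p = 0.091), where its night pools read 5624, 4941 and 5254, against 4229, 3910.3 and 3690 by day. Those control pools did not overlap. The day-night difference did not differ between genotypes for any member (0 of 38 and 0% of all genes, unadjusted 3 members).

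The last comparison set control retina against control pineal gland, averaged over both times, to show where these genes are expressed. Of 39 members 37 passed, 19 higher in the retina and 18 lower, against 74.3% of all genes, 23.1% higher and 51.2% lower. The median difference of the members was 0.29, beside -0.27 for all genes. Gng3, a gamma subunit of neurons, had the largest fitted difference, with pineal signals that exceeded the array median on 2 of 12 arrays. It read 6754, 5991 and 7346 at ZT20 and 7528, 6064 and 5897 at ZT6 in retina, against 117.6, 105.8 and 73.5 at ZT20 and 55.0, 88.6 and 247.5 at ZT6 in pineal gland. The highest pineal value is that of pool 3 at ZT6, the pool with the highest Gnat1 signal of that tissue. The fitted log2 difference was 5.79 ± 0.26 (adjusted p = 3.9e-18) and lay between 5.29 and 6.06 over the alternatives.

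Rgs8, Rgs17 (4.12 ± 0.17) and Rgs4 (3.61 ± 0.14), all Rgs genes of neurons, were higher in the retina too. Over the alternatives the log2 difference was 4.29 to 5.34 for Rgs8, 3.05 to 4.84 for Rgs17 and 2.79 to 3.87 for Rgs4, so their order is not settled. Rgs8 read 2542, 2244 and 2839.5 at ZT20 and 2556, 1867 and 1996 at ZT6 in retina, against 36 to 83 in the 6 pineal pools. Rgs17 read 567 to 806 in the 6 retinal pools, against 13.6 to 40.5 in the pineal ones. Rgs4 read 1729 to 2522 in retina, against 91.0 to 233 in pineal gland. In none of these did the tissues overlap. Gnal, the Golf alpha subunit (3.13 ± 0.16), was not above the filter in the pineal gland. The same held for Gng3, Rgs8, Rgs13 and Rgs17, so the sizes of these 5 differences rest on dim pineal signals.

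By role, Rgs genes were mostly higher in the retina, 10 of 15 against 5 lower. All 3 tested R7 genes were higher, Rgs11 (2.58 ± 0.18), Rgs9 (1.70 ± 0.18) and Rgs7 (0.39 ± 0.11), as were their anchors Rgs9bp (2.10 ± 0.10) and Rgs7bp (1.41 ± 0.14) and their obligate beta subunit Gnb5 (0.31 ± 0.06). With the mean over all probe sets of a gene, Rgs9 turned to -0.02 and Gnb5 was lost. Other probe sets of Gnb5 and Rgs9 reached -0.23 and -1.94. Of R4 genes Rgs4, Rgs8, Rgs16 (2.87 ± 0.15), Rgs13 (1.58 ± 0.19) and Rgs3 (0.59 ± 0.16) were higher, although of 3 other probe sets of Rgs3 only 1 had that direction (-1.14 to 0.46), and Rgs5 (-1.02 ± 0.08) and Rgs2 (-0.89 ± 0.09), which prefers Gq, were lower. Of the RZ family Rgs17 and Rgs20 (1.99 ± 0.16) were higher and Rgs19 (-1.13 ± 0.16) lower. Both tested R12 genes were lower, Rgs10 (-0.89 ± 0.17) and Rgs12 (-0.69 ± 0.16).

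Alpha subunits split within classes. Of the Gi/o class Gnao1 (2.39 ± 0.10) and Gnaz (1.73 ± 0.10) were higher in the retina, and Gnai1 (-0.89 ± 0.09), Gnai2 (-1.03 ± 0.11) and Gnai3 (-1.07 ± 0.10) lower. Both other probe sets of Gnao1 gave -0.02 and 0.22, and with all probe sets averaged its difference was 0.86. Of the Gs class Gnal was higher and Gnas (-0.48 ± 0.07) lower. Gq/11 and G12/13 subunits were lower or did not pass: Gnaq (-0.43 ± 0.11), Gna11 (-0.36 ± 0.14), Gna12 (-0.80 ± 0.13) and Gna13 (-0.32 ± 0.07) were lower and Gna14 was at 0.29 ± 0.19 (adjusted p = 0.17). After quantile normalisation Gna11 (-0.10) and Gna13 (-0.09) no longer passed and Gna14 did, as higher, and the same 3 calls changed after median centring. Of the gamma subunits Gng3, Gng2 (1.67 ± 0.12) and Gng7 (0.91 ± 0.17) were higher, Gng11 (-2.19 ± 0.16) and Gng12 (-1.48 ± 0.12) lower, and Gng10 did not pass. Of the beta subunits Gnb4 (-1.59 ± 0.14) and Gnb2 (-0.80 ± 0.17) were lower. Gnb1l was lower too (-0.89 ± 0.17). It exceeded the array median on 0 of 12 retinal arrays and entered this test through the pineal gland, so the size of its difference rests on dim retinal signals.

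**Figure D5:**
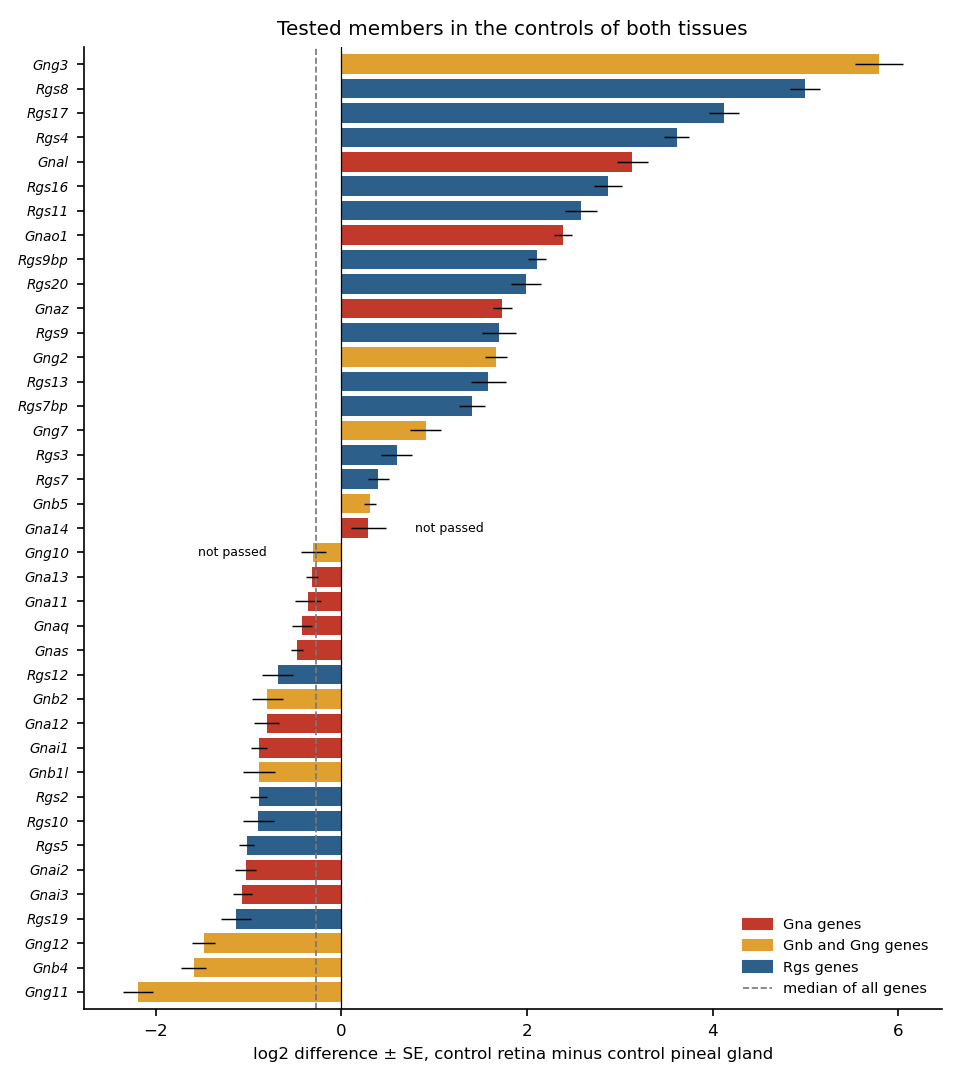
Log2 difference between control retina and control pineal gland with its standard error for 39 members, averaged over both times, in descending order. Colours mark Gna genes (red), Gnb and Gng genes (yellow) and Rgs genes (blue), and the dashed line is the median of all genes at -0.27; Gng3 at 5.79 and Gng11 at -2.19 are the ends of the range, and Gna14 and Gng10 did not pass.

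Partners of the pathway outside these families were read from a list of 27 genes, of which 24 were on the array and 22 and 23 were tested in pineal gland and retina. In cKO retinas 2 were lower and 0 higher at ZT20, against 1.02% and 5.48% of all genes. Those lower were the cone arrestin Arr3 (-0.68 ± 0.14) and the cone transducin alpha subunit Gnat2 (-0.47 ± 0.11). At ZT6, 2 were lower and 3 higher, against 1.12% and 22.8% of all genes. The median difference of the partners was 0.10, beside 0.29 for all genes. The cone gamma subunit Gngt2 (-0.88 ± 0.28) and Arr3 (-0.62 ± 0.14) were lower. The G protein modulator Gpsm3 (0.77 ± 0.22), the arrestin Arrb1 (0.63 ± 0.21) and the phospholipase Plcb4 (0.50 ± 0.14), an effector of Gq/11, were higher. Gngt2 was dim, at 88.4, 113.9 and 81.5 in cKO retinas at ZT6, below the medians of those arrays. In controls it read 241.4, 188.5 and 140.7, above theirs, so it entered the test largely through the control groups. At ZT20 its pools overlapped. In the pineal gland at night 3 were lower in cKO and 4 in controls, against 8.34% and 3.13% of all genes. Higher at night were 0 and 1, against 2.83% and 5.13%. Phosducin, Pdc, which binds beta-gamma, was at -1.06 ± 0.23 in cKO and -1.17 ± 0.23 in controls, and the rod-type gamma subunit Gngt1 at -0.83 ± 0.16 and -0.69 ± 0.16. Pdc was highest in pool 3 at ZT6, with 5568 units in cKO and 4819 in control, the same pools that stood apart in Gnat1. Plcb4 was higher at night in controls (0.39 ± 0.11). Between genotypes in the pineal gland 0 of 22 passed at either time, against 0.951% of all genes at ZT20 and 1.8% at ZT6. The partner calls are those on values as deposited.

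The 6 members tested in no tissue were Gna15, a Gq/11 subunit of blood cells, Gnasas1, Gng8, Rgs1, Rgs14 and Rgs6. Gna15 read 3.5 to 32.2 units over all 24 arrays, and Gnasas1 1.0 to 15.5. Fitted without the filter, Rgs6, the remaining R7 gene, was lower at night in cKO glands (-0.95 ± 0.22, adjusted p = 0.011, 4.68% of all genes passing), where it read 9.2, 16.9 and 26.5 at ZT20, against 48.9, 44.3 and 48.6 at ZT6. Those signals are close to the floor. In the same unfiltered fits Gng8 (-0.62), Rgs1 (-1.37) and Rgs14 (-1.03) were lower and Rgs6 (0.58) higher in control retina than in control pineal gland (63.8% of all genes passing). The signed difference between genotypes was larger in the retina than in the pineal gland for Rgs1 (0.98), Gng8 (0.91) and Rgs6 (0.88), with 15.7% of all genes passing. Of the 39 members tested, those that passed in no comparison within a tissue were Gnai1, Gnal, Gnas, Gnb1l, Gnb4, Gnb5, Gng2, Gng3, Gng10, Gng11, Rgs2, Rgs3, Rgs7, Rgs9, Rgs11, Rgs13, Rgs16, Rgs19 and Rgs7bp.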

How the data were processed

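Signal was measured on 24 Affymetrix Mouse 430 2.0 arrays, 1 for each pool of 6 glands or retinas. Each array was deposited as a linear intensity for every probe set, made by the authors with GCOS per the submitters' processing notes. Its version and the scaling of the arrays are not given in the sources used here. Of 45101 probe sets 34945 had 1 gene symbol, covering 18193 genes, and 0 sample columns were left unused. Among several probe sets of a gene, that with the highest mean signal was used.

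Groups came from the sample titles. Signals were converted to log2(value + 16), which understates differences of dim genes, and modelled in R 4.3.3 with limma 3.58.1 (eBayes with a variance trend). Each tissue was fitted with its 4 groups and comparisons across tissues with all 8. Tests were two-sided, with Benjamini-Hochberg adjustment across all genes that exceeded the array median on at least 3 arrays of a tissue, with a threshold of 0.05. The pineal fit had 104 prior degrees of freedom, against 6.69 after quantile normalisation, and 8 residual ones. The fit was tested on simulated signals drawn without shifts between array medians, so that test does not bear on the scaling of the arrays. An exact permutation test of 3 pools against 3 cannot go below 0.1. The labels do not say whether pools share animals across groups, so p-values measure the spread between pools. With 104 prior and 8 residual degrees of freedom, the pineal p-values rest mostly on a spread shared over genes. A gene's own spread between pools counts little there. The number of arrays limits the precision.

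The labels number the pools. Same-numbered pools were taken as paired where every correlation of their deviations was over 0.1. Over 8 pairs of groups the correlations ran from -0.53 to 0.40, and only cKO against control pineal gland at ZT6 met this.

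Promoters are those of RefSeq on GRCm38.p6, which matched 34 of the 45 members by gene ID. The members, gene lists and alternatives were chosen with earlier results of these data known. Per comparison the members that passed were named, up to 12 each way, with the values of every pool for up to 4. Pool values of Rgs9bp in the retina, Gnaz in the retina, Rgs10 in the pineal gland and Rgs6 go beyond that rule and were chosen after their values were seen. Alternatives were quantile normalisation, median centring, a pseudocount of 1 or 64, no filter, no variance trend, other choices of probe set, the replicate block, and pools left out.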

Additional observations from a re-analysis of the deposited data

Results flagged for a closer look

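For 12 members the difference between cKO and control differed between the tissues by the test of that difference in limma (fit of 24 arrays, 3 pools per group, log2 scale, averaged over both times). In each of these members its signed value, cKO minus control, was larger in the retina than in the pineal gland. Among subunits these were Gna14 (2.15 ± 0.27, adjusted p = 7.9e-07), Gng12 (0.89 ± 0.17), Gng10 (0.72 ± 0.20), Gnai2 (0.60 ± 0.16) and Gnai3 (0.54 ± 0.14). Among Rgs genes and their anchors they were Rgs10 (1.23 ± 0.24), Rgs12 (0.94 ± 0.23), Rgs19 (0.89 ± 0.23), Rgs17 (0.74 ± 0.23), Rgs7bp (0.72 ± 0.20), Rgs4 (0.63 ± 0.19) and Rgs5 (0.59 ± 0.12). Adjusted p was 0.025 for Rgs17 and smaller for the others, and 20.2% of all genes tested passed in this direction. A fall in the pineal gland counts in this direction too. Rgs4 was at 0.17 in the retina and -0.47 in the pineal gland. Rgs17 exceeded the array median on 0 of 12 pineal arrays, and its call ended under 5 of 11 alternative settings and with 3 single pools left out. Array medians moved in opposite directions between genotypes in the 2 tissues, and after median centring Gna14, Rgs10 and Gng12 were the members of these 12 that still passed as larger.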

How the results depend on the processing

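Of the 76 calls of a member in a comparison, 43 held under every setting in which the gene was tested and with every pool left out. Quantile normalisation ended 15, median centring 22 and the replicate block 4. In the retina, cKO against control at ZT6 gave 7 members after median centring and 10 after quantile normalisation, and 5 to 20 with 1 pool left out. At ZT20 it gave 3 without the variance trend and 3 without pools 2 and 3 of cKO, and 1 to 8 with 1 pool left out. In the pineal gland at ZT6 it gave 18 after median centring and 1 after quantile normalisation, and 0 with any 1 pool left out. At ZT20 it gave 0 after quantile normalisation, median centring or averaging of probe sets, 0 without the filter, the variance trend or pools 2 and 3 of cKO, and 0 to 2 with 1 pool left out. Between day and night, control glands gave 6 members after median centring, 8 after quantile normalisation and 4 with the replicate block, and 2 to 3 with 1 pool left out, and cKO glands 3 to 5. The retinal day-night comparisons and the differences of day-night changes gave 0 with any pool left out. Counts over all genes moved with 1 pool left out too. For cKO against control they ran from 1109 to 3546 in the retina at ZT6 and 282 to 807 at ZT20, and from 11 to 463 in the pineal gland at ZT20. For the cKO effect between tissues they ran from 2006 to 4038. The tissue comparisons gave 36 to 38 members for controls and 11 to 20 for the cKO effect with 1 pool left out, and 32 to 41 and 10 to 17 under the other settings. Rgs9 in control retina against control pineal gland reversed to -0.022 with all probe sets averaged. The block ended the calls of Gnaq, Gng7 and Rgs17 in the retina at ZT6 and of Rgs10 at ZT20. Except where the alternative itself uses fewer pools, genes or a gene's own spread, the cause was not tested. Members near the array median have the least signal over background, which limits their folds.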
